A study of Mus musculus with 16 samples.

Results

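The cortex response of 10 genes of the defence against oxidative stress was followed in Neil1 knockout and wild-type mice after whole-body gamma irradiation: Hmox1, Nqo1, Gclc, Gclm, Txnrd1, Srxn1, Slc7a11, Gsr, Prdx1 and Txnip. They were chosen by name, and every array probe whose RefSeq entry maps to one of them was taken. This gave 15 probes among the 56605 of the array, and 10 genes among the 17436 that could be tested. Gene expression was measured on 1-colour Agilent arrays, with 1 array for each of 16 male mice. Neil1 encodes a DNA glycosylase that removes oxidised bases at the start of base excision repair, and the 2 × 2 design asks how its loss and irradiation, separately and together, alter the cortex transcriptome. The wild-type mice were littermates, the strain was backcrossed to C57BL/6, and ages ran from 28 to 42 weeks. Each genotype had 4 mice irradiated with 6 Gy at 0.74 Gy/min and 4 sham mice that went through the same procedure without radiation, and cortex was taken 20 h later. By the labels' protocol the mice were also injected with BrdU, a thymidine analogue, at 100 mg/kg, once ahead of the irradiation and once 2 h later. The labels give the knockout as Neil1-/- and say no more about the allele.

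Most of these genes belong to the programme of the transcription factor NRF2 (gene Nfe2l2), which KEAP1 holds at a low level until oxidants or electrophiles modify it. NRF2 then binds antioxidant response elements and raises enzymes that make glutathione, reduce thioredoxin and peroxiredoxins and detoxify quinones and heme. In brain, astrocytes carry much of this programme and supply neurons with glutathione precursors. Txnip stands outside it: its protein binds thioredoxin and inhibits it, and its transcription follows glucose through the factors MondoA and MLX.

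Promoter sequence was searched for the element that NRF2 binds. Most of these genes are known as NRF2 targets, so the share with a match is not independent of the choice by name. RefSeq promoter windows of GRCm38.p6, from 250 bases before to 50 bases after the transcription start, were found for 7 of the 10 genes, and those of Gclc, Gsr and Hmox1 were not used here. The core of the antioxidant response element, written TGACNNNGC and searched on both strands, occurred in 4 of these 7 genes, namely Srxn1, Gclm, Prdx1 and Txnrd1, against 14.0% of all 27025 genes with a window. The 3 stretches that hold the core upstream of the start are printed 5′ to 3′ on the plus strand, with the match in capitals; the core reads on the opposite strand in each. They lie at chr3:122245383-122245471 (Gclm), chr4:116685426-116685514 (Prdx1) and chr10:82859074-82859162 (Txnrd1). The Prdx1 match overlaps TGAGTCA, the letters of an AP-1 site.
Gclm: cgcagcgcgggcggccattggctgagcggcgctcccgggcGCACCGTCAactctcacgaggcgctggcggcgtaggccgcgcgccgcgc
Prdx1: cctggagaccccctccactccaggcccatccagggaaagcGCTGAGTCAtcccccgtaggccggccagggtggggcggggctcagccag
Txnrd1: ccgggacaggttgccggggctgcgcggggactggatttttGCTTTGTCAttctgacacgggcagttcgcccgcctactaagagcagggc
The matches begin 134, 133 and 92 bases before the start in Gclm, Prdx1 and Txnrd1. Txnip had no match to the core in its window, and it is shown for a different feature, a pair of CCAAT boxes in opposite orientation (capitals) at chr3:96557780-96557899.
Txnip: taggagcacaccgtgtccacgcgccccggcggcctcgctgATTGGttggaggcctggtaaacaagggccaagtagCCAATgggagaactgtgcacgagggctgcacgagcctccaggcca
CCAAT, searched on both strands, occurred in 4 of the 7 genes and in 41.1% of all genes with a window. A match describes the letters of the window and is no measure of binding.

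All 15 probes were well above background on 16 of 16 arrays, and none was saturated. A level is the log2 of a probe's signal minus the 75th percentile of its array, so a value of 1 lies at 2 times that percentile; levels of different probes are not set against each other. The percentile itself, a measure of how bright an array is, averaged 2415 ± 274 in wild-type sham, 2301 ± 235 in wild-type irradiated, 1778 ± 343 in knockout sham and 1333 ± 301 in knockout irradiated arrays (SD, n = 4 each). Each genotype was hybridised on a slide of its own, and sham and irradiated samples lay in different rows of each slide, so genotype and slide, and irradiation and row, cannot be told apart. The Neil1 probe did not bear out the labels: it read -3.65 ± 0.28 and -3.75 ± 0.40 in wild-type sham and irradiated arrays against -2.38 ± 0.19 and -2.36 ± 0.23 in those labelled knockout (SD, n = 4). Where this probe lies relative to the deletion is not stated in the sources used, so "knockout" means the arrays labelled so throughout. Neil1 and Gclc are both on chromosome 9, 20.6 Mb apart in the GRCm38.p6 gene table. Of the cortex's cell types, all 5 neuronal and all 5 astrocyte markers were well above background on 16 arrays; the 4 markers of striatum, a neighbouring region, were too on at least 15, and their mean level ranged from -1.46 to 2.63 between arrays.

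None of the 10 genes changed in any of 6 comparisons at an adjusted p under 0.05 in limma's moderated test over all 17436 genes, with Benjamini-Hochberg adjustment. Of 60 gene-by-comparison values, 6 had an unadjusted p under 0.05: 3 for Hmox1, 2 for Txnip and 1 for Nqo1. The plot of levels by mouse shows which groups these come from.

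**Figure D1:**
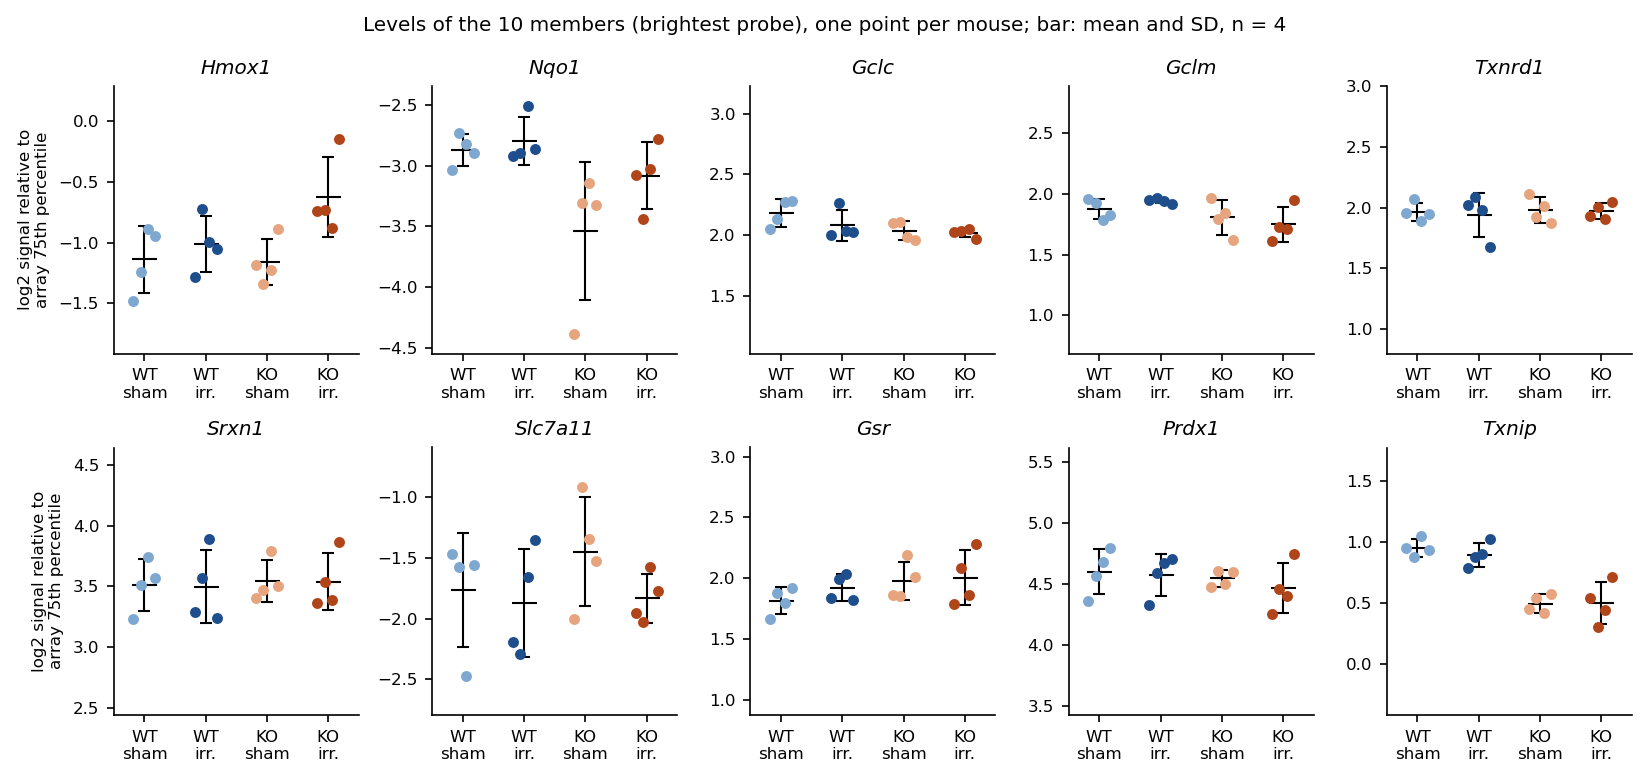
Level of each gene (log2 units above or below the 75th percentile of the array) in the 4 groups, 1 point per mouse, with the mean and SD of 4 mice. Hmox1 in irradiated knockouts sits above knockout sham, Nqo1 in knockout sham sits below wild-type sham with 1 mouse at -4.39, and Txnip in both knockout groups sits below both wild-type groups.

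Hmox1, heme oxygenase 1, breaks heme into biliverdin, carbon monoxide and iron and is among the most inducible targets of NRF2. Its levels were -1.48, -1.24, -0.89 and -0.94 in wild-type sham mice and -1.28, -0.72, -0.99 and -1.06 in irradiated wild-type mice. In knockouts they were -1.18, -1.34, -1.22 and -0.89 after sham treatment and -0.74, -0.73, -0.88 and -0.14 after irradiation. The wild-type groups overlapped, whereas every irradiated knockout lay above every knockout sham mouse, the closest pair being nearly level. Irradiation went with a difference of 0.54 ± 0.18 (SE) in knockouts, 1.45-fold, with adjusted p = 0.77, and with 0.13 ± 0.18 in wild-type mice (adjusted p = 0.9998). The knockout value ran from 0.34 to 0.63 over the alternative settings on the log2 scale, leaving out single arrays included, and was called in none. The interaction, which tests whether irradiation acts differently in the 2 genotypes, was 0.41 with a 95% interval of -0.13 to 0.95 (adjusted p = 0.9999). After irradiation, Hmox1 was 0.39 ± 0.18 higher in knockouts than in wild-type mice with overlapping groups (adjusted p = 0.29). This genotype difference was 0.23 without irradiated knockout replicate 4, the mouse at -0.14, and 0.014 when array brightness was a covariate. Brightness was lower on average in knockout arrays, so this covariate and genotype cannot be fully separated. Averaged over both genotypes, the irradiation difference was 0.33 ± 0.13 (adjusted p = 0.81).

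Nqo1, the quinone reductase that spares cells the redox cycling of quinones, varied more between mice than most of the set. It read -3.04, -2.73, -2.82 and -2.89 in wild-type sham mice and -4.39, -3.31, -3.14 and -3.32 in knockout sham mice. All 4 knockout sham mice were below all 4 wild-type sham mice, and replicate 1 of the knockouts lay far below the rest. The difference was -0.67 ± 0.23 (adjusted p = 0.49), -0.38 without that mouse and -1.03 when array brightness was a covariate. After irradiation Nqo1 read -2.92, -2.89, -2.51 and -2.87 in wild-type mice and -3.08, -3.44, -3.03 and -2.78 in knockouts. These groups overlapped, at a difference of -0.29 ± 0.23 (adjusted p = 0.58), and -0.94 with the brightness covariate. Within knockouts the irradiated mice averaged 0.46 ± 0.23 above sham (adjusted p = 0.9995), again with overlap, and 0.17 without the same mouse, so most of this difference rests on it.

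The glutathione branch begins with Slc7a11, the cystine-glutamate exchanger that brings in the precursor, and goes on to Gclc and Gclm, the catalytic and modifier subunits of glutamate-cysteine ligase, and to Gsr, which reduces oxidised glutathione. Gclc read 2.05, 2.13, 2.27 and 2.28 in wild-type sham, 2.00, 2.27, 2.03 and 2.02 in wild-type irradiated, 2.10, 2.11, 1.99 and 1.96 in knockout sham and 2.03, 2.03, 2.05 and 1.97 in knockout irradiated mice. Its whole range over 16 arrays was 0.32, and its residual SD of 0.095 was at the 2.26th percentile of all genes tested, so it was among the steadiest genes of the cortex. Its changes ran from -0.15 ± 0.088 (knockout minus wild type in sham, adjusted p = 0.75) to -0.017 ± 0.088 (irradiation in knockout, adjusted p = 0.9995) in the 4 direct comparisons.

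Gclm was steady in irradiated wild-type mice, at 1.95, 1.96, 1.94 and 1.91, and spread further in irradiated knockouts, at 1.61, 1.73, 1.71 and 1.95. In sham mice it read 1.96, 1.92, 1.78 and 1.83 in wild type and 1.97, 1.79, 1.84 and 1.62 in knockouts. In irradiated mice 3 of 4 knockouts lay below all wild-type values and the fourth within them, a difference of -0.19 ± 0.095 (adjusted p = 0.33). Gsr read 1.66, 1.88, 1.80 and 1.92 in wild-type sham and 1.79, 2.08, 1.86 and 2.28 in irradiated knockout mice, the latter holding both a low and a high value. Its 4 direct comparisons lay between 0.025 ± 0.12 (irradiation in knockout) and 0.17 ± 0.12 (knockout minus wild type in sham, adjusted p = 0.81).

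Slc7a11 had 2 probes, which moved together within groups (r = 0.72 over 16 arrays after removal of group means). On A_51_P129502 it read -1.47, -1.58, -2.47 and -1.56 in wild-type sham, -2.19, -2.29, -1.66 and -1.35 in wild-type irradiated, -2.005, -0.92, -1.35 and -1.53 in knockout sham and -1.95, -2.03, -1.58 and -1.78 in knockout irradiated mice. All groups overlapped, and single mice of a group differed by more than 0.4. Irradiation went with -0.38 ± 0.27 in knockouts on this probe and -0.41 ± 0.26 on the other, A_52_P368057, with adjusted p = 0.9995 and 0.97. In wild-type mice the values were -0.11 ± 0.27 and -0.29 ± 0.26, and none of the 4 estimates passed the test. The wild-type value on A_51_P129502 depended on single mice: it was -0.34 without sham replicate 3 and 0.033 without irradiated replicate 2, so it has no settled sign. This was the least precise gene of the set, with a 95% half-width of 0.58.

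In the thioredoxin branch, Txnrd1 encodes the cytosolic thioredoxin reductase, Prdx1 a peroxiredoxin that thioredoxin keeps reduced, and Srxn1 the sulfiredoxin that rescues overoxidised peroxiredoxins. Txnrd1 on A_51_P320614 read 1.96, 2.07, 1.89 and 1.95 in wild-type sham, 2.02, 2.09, 1.98 and 1.68 in wild-type irradiated, 2.12, 1.92, 2.02 and 1.87 in knockout sham and 1.93, 2.00, 1.91 and 2.05 in knockout irradiated mice. The group means lay between 1.94 and 1.98. Its changes in the 4 direct comparisons ran from -0.026 ± 0.098 to 0.032 ± 0.098. The probe A_55_P2740574 of the same gene varied more, from 0.33 to 1.39, did not follow the other within groups (r = 0.12), and gave -0.25 ± 0.21 for irradiation in knockouts and -0.25 ± 0.21 for knockout minus wild type after irradiation (adjusted p = 0.9995 and 0.55).

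Srxn1 read 3.23, 3.51, 3.74 and 3.57 in wild-type sham, 3.29, 3.57, 3.89 and 3.24 in wild-type irradiated, 3.41, 3.47, 3.79 and 3.50 in knockout sham and 3.36, 3.54, 3.38 and 3.87 in knockout irradiated mice. All 4 groups overlapped. The changes in the direct comparisons were between -0.016 and 0.042, each with an SE of 0.16.

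Prdx1 had 3 probes, and they did not give one answer on genotype. On A_55_P2904683, which represents the gene in the test over genes, the means were 4.60 ± 0.19 and 4.57 ± 0.17 in wild-type sham and irradiated mice and 4.55 ± 0.070 and 4.47 ± 0.21 in knockout sham and irradiated mice (SD, n = 4). On A_51_P353183 irradiated wild-type mice read 3.27, 3.55, 3.56 and 3.33 and irradiated knockouts 3.05, 2.77, 3.08 and 3.30. On A_66_P113839 they read 1.27, 1.02, 0.97 and 0.84 against 1.23, 0.85, 1.41 and 1.31. The groups overlapped on each probe. Knockout minus wild type after irradiation was thus -0.11 ± 0.13, -0.38 ± 0.14 and 0.17 ± 0.14 on the 3 probes, with adjusted p = 0.72, 0.13 and 0.54 in the fit over 39589 probes. In sham mice A_66_P113839 read 0.89, 0.93, 0.90 and 0.97 in wild type and 1.40, 1.01, 1.06 and 1.06 in knockouts. These groups did not overlap, as was true of 3 of the 15 probes and of 4.82% of all genes in this comparison. The difference was 0.21 ± 0.14 (adjusted p = 0.72), while A_51_P353183 and A_55_P2904683 gave -0.15 ± 0.14 and -0.055 ± 0.13.

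Txnip, the thioredoxin inhibitor, showed the smallest p of the set, and its 2 probes pointed in opposite directions after irradiation. On A_66_P131361 it read 0.95, 0.88, 1.05 and 0.93 in wild-type sham and 0.78, 0.87, 0.90 and 1.02 in wild-type irradiated mice. Knockouts read 0.45, 0.54, 0.41 and 0.58 after sham treatment and 0.54, 0.30, 0.44 and 0.71 after irradiation. Every knockout mouse was below every wild-type mouse, whatever the treatment. Knockout minus wild type was -0.46 ± 0.095 in sham mice (1.37-fold lower, adjusted p = 0.17) and -0.40 ± 0.095 after irradiation (1.32-fold lower, adjusted p = 0.059). In the fit over all probes the latter had an adjusted p of 0.039 and was the only one of the 15 probes called, where 4.67% of all probes were called. In the other 5 comparisons 0 of 15 probes were called, against 0.0404% (irradiation in wild type), 0.0455% (in knockout), 0.147% (averaged), 0.0455% (genotype in sham) and 0% (interaction) of all probes. The Txnip value after irradiation was called in 6 of 30 alternative settings, a count that includes this same fit over probes. Irradiation left this probe at -0.057 ± 0.095 in wild-type mice and 0.0038 ± 0.095 in knockouts.

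The other Txnip probe, A_55_P2006255, read -3.72, -3.73, -3.81 and -3.85 in wild-type sham, -3.48, -3.87, -3.96 and -3.62 in wild-type irradiated, -3.73, -4.15, -3.57 and -3.84 in knockout sham and -3.10, -3.79, -2.73 and -3.30 in knockout irradiated mice. It was the dimmer of the 2 Txnip probes, and its highest value, -2.73, was on irradiated knockout replicate 3, among the 2 dimmest arrays. Of the irradiated knockouts, 3 were above all other mice and the fourth was within their range. Knockout minus wild type after irradiation was therefore 0.50 ± 0.19 on this probe (adjusted p = 0.15) and -0.045 ± 0.19 in sham mice (adjusted p = 0.98). Its irradiation difference was 0.59 ± 0.19 in knockouts (adjusted p = 0.61), with an interaction of 0.55 ± 0.27 (adjusted p = 0.9999). The probes did not follow each other within groups (r = 0.043). The sources used do not state which exon or transcript each probe reads. Higher values in irradiated knockouts were common among dim probes. Without the filter on dim probes, knockout minus wild type after irradiation called 1798 of 22911 genes, 87.3% of them higher, against 143 higher of 205 in the main fit. When the probes of a gene were averaged, Txnip came to 0.052 after irradiation (adjusted p = 0.85), so the direction of its genotype difference in irradiated mice rests on the probe chosen. In sham mice both probes gave a negative value, -0.46 on A_66_P131361 and -0.045 on A_55_P2006255, so there the size and not the direction differed between probes.

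**Figure D2:**
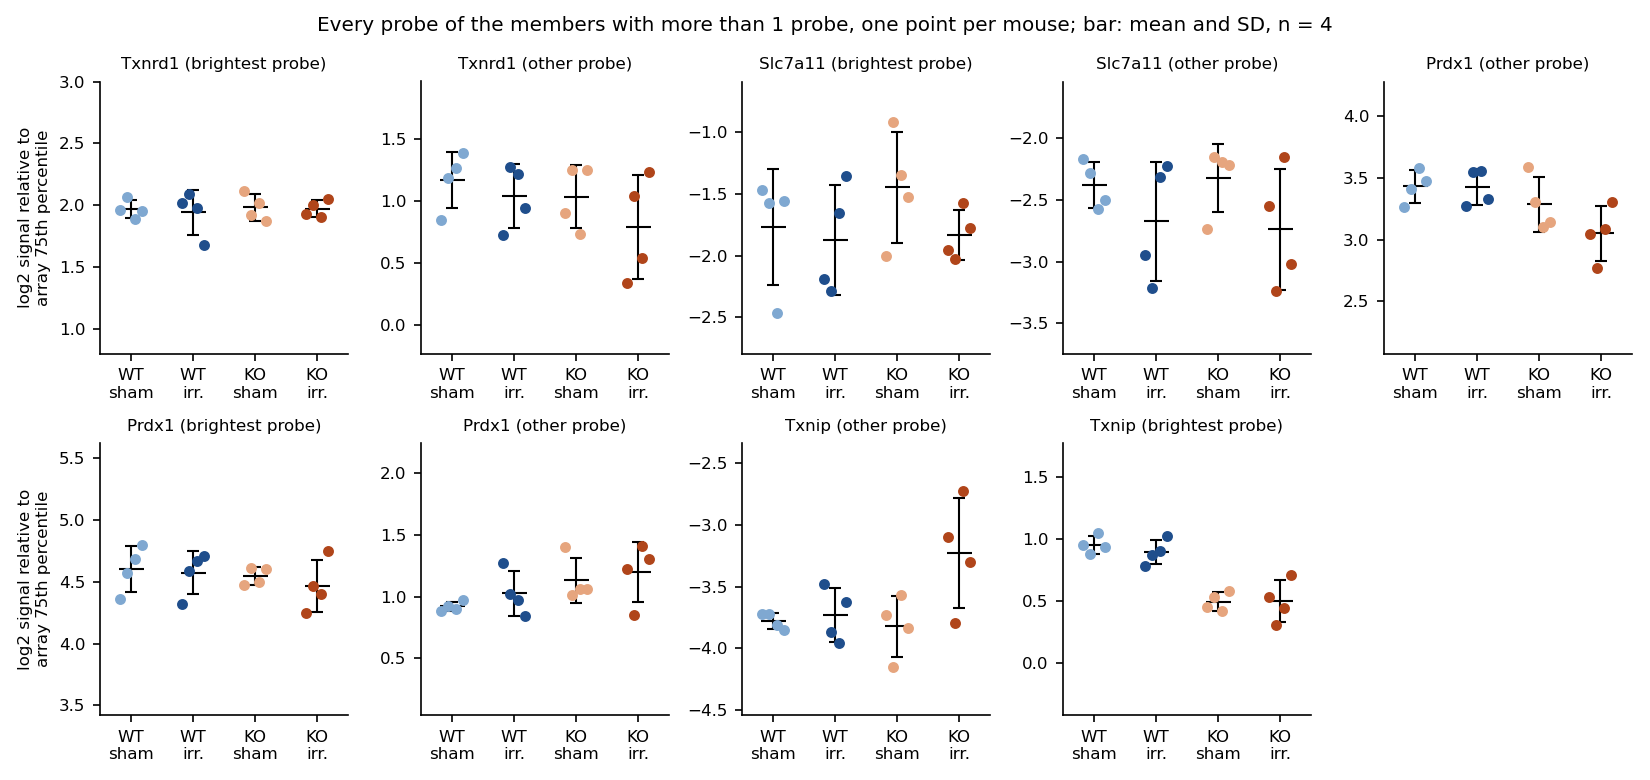
Levels of every probe of Txnrd1, Slc7a11, Prdx1 and Txnip (log2 units above or below the 75th percentile of the array), 1 point per mouse, with the mean and SD of 4 mice in each group. The 2 Slc7a11 probes show like patterns, whereas the Txnip probe A_66_P131361 is lower in both knockout groups and A_55_P2006255 is higher in 3 of 4 irradiated knockouts.

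Read by comparison, no member was called after irradiation in either genotype, and the median changes of the set lay near those of all genes. In wild-type mice 0 of 10 genes were called, against 0.0746% of all genes, and 0 had an unadjusted p under 0.05, against 1.97%. The median change of the 10 genes was -0.021, beside 0.014 over all genes, with values from -0.11 to 0.13. Their 95% intervals reached from -0.68 to 0.56, the limits being set by Slc7a11 and Nqo1. In knockouts 0 of 10 were called, against 0.12% of all genes, and Hmox1 alone had an unadjusted p under 0.05, against 4.63%. Hmox1 was also the only one without overlap between the groups, which 2.19% of all genes reached. The median change was -0.0071, beside -0.00097 over all genes. Averaged over genotypes, 0 of 10 were called, against 0.304%, and Hmox1 alone had an unadjusted p under 0.05, against 5%. The interaction called 0 of 10 members and 0 of all genes (0%) in limma, where 222 genes, or 1.27%, had an unadjusted p under 0.05, none of them a member.

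Genotype gave 0 of 10 calls in sham mice, where 0.0516% of all genes were called. Txnip and Nqo1 had an unadjusted p under 0.05 and did not overlap between genotypes, beside 7.69% and 4.82% of all genes. After irradiation 0 of 10 were called, against 1.18% of all genes. Hmox1 and Txnip had an unadjusted p under 0.05, a share close to the 16.6% of all genes, and Txnip did not overlap between genotypes, which was also true of 8.73% of all genes. The median changes were -0.038 and -0.014 in the 2 comparisons, beside -0.024 and -0.031 over all genes. The comparisons share groups with one another, so their values are not independent.

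**Figure D3:**
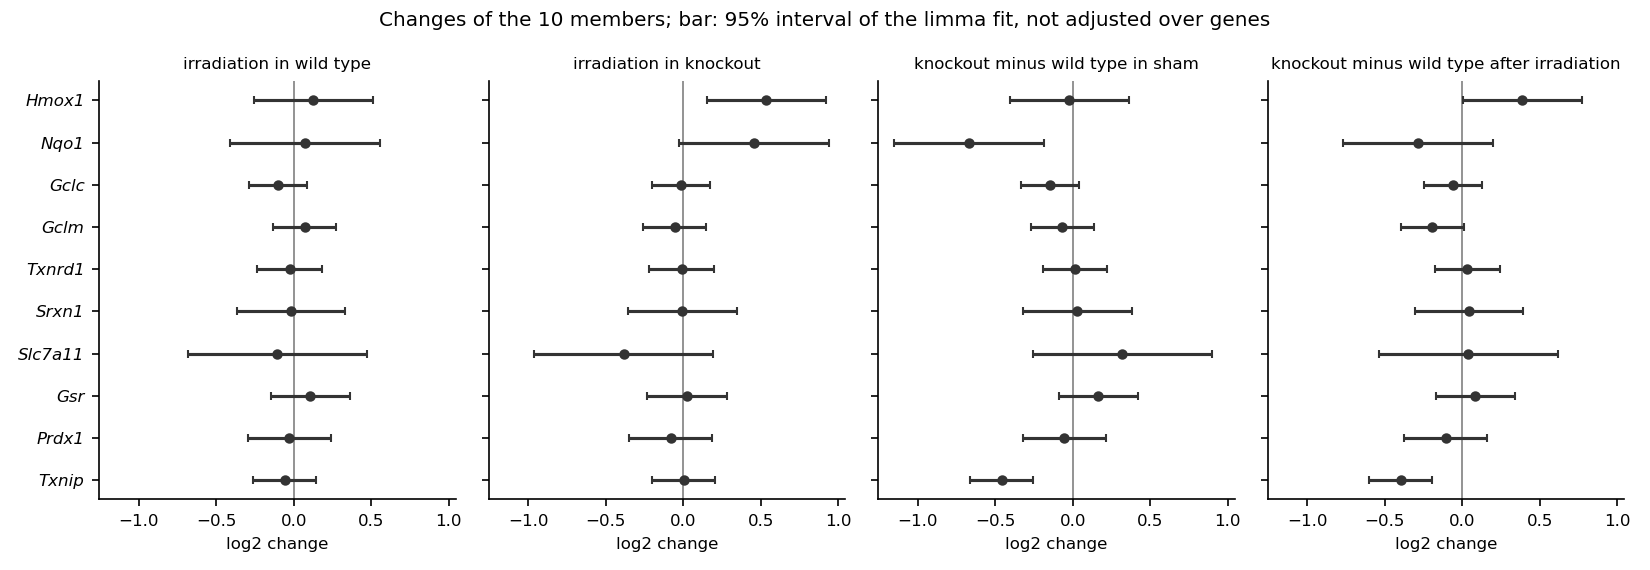
Log2 change of each gene in the 4 direct comparisons, with the 95% interval of the limma fit, not adjusted over genes. Intervals that leave out 0 belong to Hmox1 (irradiation in knockout, and knockout minus wild type after irradiation), Nqo1 (in sham) and Txnip (knockout minus wild type in sham and after irradiation).

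Within groups, where neither treatment nor genotype enters, some members rose and fell together between mice. After removal of group means the closest pairs over 16 arrays were Srxn1 and Gsr (r = 0.83), Hmox1 and Prdx1 (r = 0.76) and Hmox1 and Gsr (r = 0.65). The median over all 45 pairs was 0.19, 10 pairs exceeded 0.5, and the lowest was -0.45. Pairs of other genes were not set beside these, so whether the members differ from them was not tested. The pairs among Srxn1, Gsr, Hmox1 and Prdx1 lay between 0.61 and 0.83 and were the highest of the set, while Gclc and Slc7a11 were in none of the 10. These points share the brightness of their arrays: the same deviations correlated with it at -0.70 for Prdx1, -0.67 for Gsr, -0.56 for Nqo1, -0.43 for Slc7a11, -0.41 for Hmox1, -0.41 for Srxn1 and -0.24 for Txnip, near 0 for Gclm (-0.0041), and at 0.17 for Gclc and 0.29 for Txnrd1. Prdx1 and Gsr, which followed brightness most closely, were in pairs above 0.5. Gclm and Txnrd1 formed such a pair too, and Slc7a11 was in none. The part of brightness in the pairs was not tested.

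Measured the same way over 17379 genes, the gene most like Gsr was Sod2, the mitochondrial superoxide dismutase (r = 0.92), followed by the sterol transporter gene Abcg1 (r = 0.91) and the metallothionein gene Mt2 (r = 0.84). The genes most like Gclm were Pla2g12a (r = 0.80), Keap1, the negative regulator of NRF2 (r = 0.79), and Aldh1a7 (r = 0.78). Most like the others were Proca1 for Hmox1 (r = 0.96), Smco3 for Nqo1 (r = 0.90), St6galnac6 for Gclc (r = 0.83), Gpr155 for Txnrd1 (r = 0.82), 3110009E18Rik for Srxn1 (r = 0.93), Ppp1r14c for Slc7a11 (r = 0.91), Mpdu1 for Prdx1 (r = 0.95) and Ahrr for Txnip (r = 0.85). These are the highest of many values and describe these 16 arrays only.

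The wider pathway was read from 9 lists with 100 genes, of which 99 could be tested, Ugt1a6a being the exception. In it, irradiation raised Ephx1 in both genotypes and Osgin1 in the average over genotypes and lowered none. These were 1 of 99 genes in wild type, 1 in knockouts and 2 averaged. Over all genes 0.0746%, 0.12% and 0.304% were called. The median change of the 99 genes was 0.014 in wild type and -0.0075 in knockouts. Ephx1, the microsomal epoxide hydrolase that opens reactive epoxides, read 2.34, 2.74, 2.55 and 2.55 in wild-type sham and 3.58, 3.79, 4.01 and 3.92 in wild-type irradiated mice. In knockouts it read 2.22, 2.40, 2.58 and 2.15 after sham treatment and 3.69, 3.60, 3.51 and 3.84 after irradiation. Sham and irradiated mice were far apart in both genotypes, at 1.28 ± 0.13 (adjusted p = 0.00030) and 1.32 ± 0.13 (adjusted p = 0.00019), with no overlap. Osgin1, an oxidative stress-induced growth inhibitor, rose by 0.74 ± 0.10 averaged over genotypes (adjusted p = 0.0030), with levels from -4.99 to -4.44 in wild-type sham and -4.01 to -3.90 in wild-type irradiated mice. Its separate values, 0.79 ± 0.14 in wild type and 0.70 ± 0.14 in knockouts, had adjusted p = 0.081 and 0.12. The other 11 tested genes of this list of detoxification enzymes were not called in any comparison.

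The transcription factor itself was not called: Nfe2l2 gave 0.27 ± 0.19 in wild type, 0.38 ± 0.19 in knockouts and 0.32 ± 0.13 averaged (adjusted p = 0.89) for irradiation. Its genotype differences had the opposite sign, at -0.46 ± 0.19 in sham mice and -0.35 ± 0.19 after irradiation (adjusted p = 0.58 and 0.38). Its small Maf partner Maff gave 0.28 ± 0.13 averaged for irradiation (adjusted p = 0.998), and -0.33 ± 0.18 and -0.41 ± 0.18 for genotype in sham and irradiated mice (adjusted p = 0.72 and 0.28). None of the 11 NRF2 regulators was called in any comparison, and their median irradiation changes were 0.049 in wild type and 0.026 in knockouts. Likewise none of 14 thioredoxin and peroxiredoxin genes, 4 superoxide and peroxide enzymes, 9 genes of NADPH supply, 3 metallothioneins or 13 genes around MondoA, Txnip's relatives and glucose was called. In their order, examples with the smallest p were the stress protein gene Sesn2 at 0.35 ± 0.12 for irradiation in wild type (adjusted p = 0.9998), Cat, catalase, at -0.47 ± 0.13 for knockout minus wild type after irradiation (adjusted p = 0.091), Idh2, a mitochondrial source of NADPH, at 0.20 ± 0.086 averaged (adjusted p = 0.91), Mt1 at 0.35 ± 0.088 for knockout minus wild type after irradiation (adjusted p = 0.066) and Mlxip, which encodes MondoA, at -0.35 ± 0.11 for irradiation averaged over genotypes (adjusted p = 0.56). Cat was also at -0.46 ± 0.13 for irradiation in knockouts (adjusted p = 0.51).

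Around Txnip, 10 of 13 genes of the MondoA and glucose list had a lower mean in knockout than in wild-type sham mice, with a median of -0.24 beside -0.024 over all genes, and 9 of 13 after irradiation, with a median of -0.20 beside -0.031. Of all genes tested, 45.3% had a higher mean in knockouts in each of these comparisons, so lower means were the more common there too. In these comparisons Mlxip was at -0.36 ± 0.16 and -0.42 ± 0.16 (adjusted p = 0.61 and 0.20), and Hk2, hexokinase 2, at -0.35 ± 0.20 and -0.59 ± 0.20 (adjusted p = 0.74 and 0.15).

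Knockout minus wild type after irradiation called 2 of 99 pathway genes, where 205 of all 17436 genes (1.18%) were called, 143 of them higher, so the count is close to the background. Both were higher: Glrx2, the mitochondrial glutaredoxin, and Fth1, the ferritin heavy chain that stores iron. Glrx2 read 6.32, 6.31, 6.22 and 6.37 in irradiated wild-type and 6.61, 7.06, 6.81 and 6.99 in irradiated knockout mice, 0.56 ± 0.11 higher (adjusted p = 0.028). Fth1 read 6.47, 6.39, 6.25 and 6.41 against 6.64, 6.97, 6.93 and 6.99, 0.50 ± 0.097 higher (adjusted p = 0.028). The groups did not overlap for either gene, as was true of 8.73% of all genes in this comparison. Both genes are named because they were called here, so the lack of overlap is not separate evidence. A further Glrx2 probe gave -0.090 in the same comparison (adjusted p = 0.71), and the calls were lost in 13 (Glrx2) and 12 (Fth1) of 30 alternative settings, among them quantile normalization and the fit with array brightness. In sham mice none of the 99 genes was called between genotypes, and none in the interaction.

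**Figure D4:**
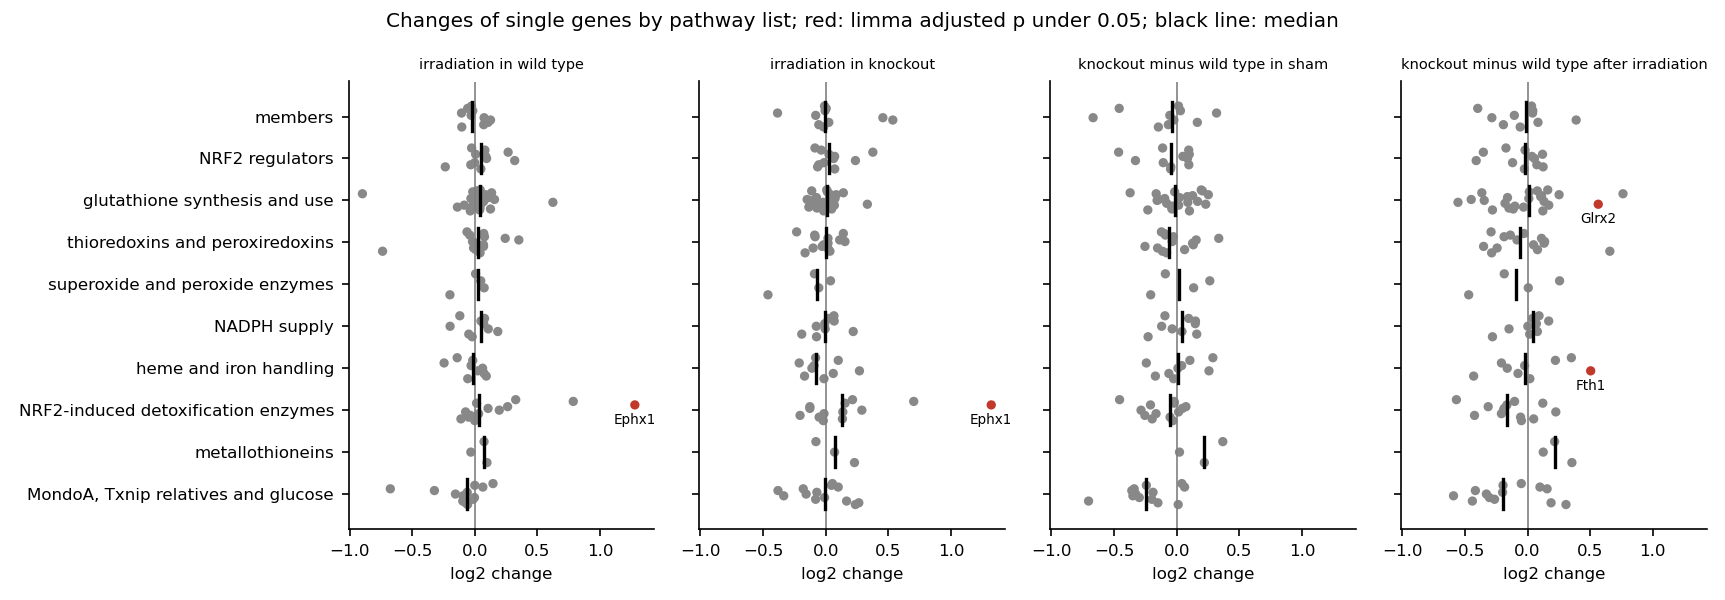
Log2 change of each of the 10 members and of the 99 tested genes of 9 pathway lists in the 4 direct comparisons, 1 point per gene; red points had an adjusted p under 0.05 in limma and black lines are list medians. Ephx1 stands apart at 1.28 and 1.32 in the irradiation panels, and Glrx2 and Fth1 are the red points at 0.56 and 0.50 after irradiation.

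Cell type markers differed with irradiation beside these values, and the called ones fell. All 6 microglial and macrophage markers had lower means after irradiation in both genotypes, with P2ry12, a receptor of resting microglia, falling by 0.62 in wild type (adjusted p = 0.036) and by 0.76 in knockouts (adjusted p = 0.0053). Gpr17 and Neu4, markers of oligodendrocyte precursors, fell by 0.80 and 0.69 in knockouts (adjusted p = 0.049 for both). In wild type they fell by 0.45 and 0.51 without being called (adjusted p = 0.9998 and 0.36). Averaged over genotypes the falls were 0.63 and 0.60 (adjusted p = 0.0098 and 0.0040), and neither gene was called in the interaction (adjusted p = 0.9999 for both). The mean level of the 4 precursor markers ran from -0.64 to -0.20 in knockout sham and from -1.11 to -0.81 in knockout irradiated mice, and that of the 6 microglial markers from 0.75 to 1.15 and from 0.52 to 0.80. In wild type the precursor markers ran from -0.70 to -0.23 in sham and from -0.90 to -0.52 in irradiated mice. The microglial markers ran from 1.04 to 1.13 and from 0.62 to 0.99 there. The other lists that leaned one way had no called marker. All 4 choroid plexus markers had higher means after irradiation, by a median of 0.16 in wild type and 0.62 in knockouts. All 5 oligodendrocyte markers had lower means in wild type (median -0.35) and higher means in knockouts (median 0.21). Both tested red cell markers were higher in knockouts after irradiation, Hba-a1 by 1.16 ± 0.99 and Alas2 by 1.23 ± 1.06 (adjusted p = 0.9995 for both), while their median in wild type was -0.030. The Hmox1 values, 0.54 in knockouts and 0.13 in wild type, lie beside these. The mean level of the red cell markers overlapped widely, from -4.23 to 1.17 in knockout sham and from -1.60 to 0.40 in knockout irradiated mice. In bulk tissue fewer cells of a type and less RNA per cell cannot be told apart, and the part of these shifts in the values of the oxidative stress genes was not tested. The 5 neuronal markers had higher means in knockouts in both treatments, by a median of 0.18 in sham and 0.25 after irradiation, none of them called.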

How the data were processed

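The authors read the 1-channel scans with Agilent Feature Extraction (version 12.0.3.1), per the file headers; the intensity used, its processed signal, was background-subtracted and not scaled between arrays. Deposited flags gave background and saturation calls. A second table deposited by the authors holds a score for each of 42859 features; its columns, with mean 0, SD 1 and median -0.08, were read as standardised log signal and served as an alternative, and no source used states how it was made. Each log2 value was the log2 of the deposited intensity minus the array's 75th percentile. Outlier spots were set to missing, spots of a probe averaged, and probes kept if well above background on at least 4 arrays with values on at least 12. The probe with the highest mean represented a gene. Of 56605 probes, 35886 carried a RefSeq entry and 32994 matched a symbol in the GRCm38.p6 gene table.

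One limma 3.58.1 fit (R 4.3.3) over 17436 genes, with a mean per group and 12 residual degrees of freedom, gave all 6 comparisons; a like fit took 39589 probes. Tests were two-sided with Benjamini-Hochberg adjustment in each comparison at 0.05, and the scripts were tested on simulated data. Named genes were all members, pathway genes called in any comparison (for a list with none, the 2 with the smallest p), the first and any called marker of each cell type, and the 3 genes most correlated with each member. The members and lists were chosen with earlier results of these data known. Alternatives covered background correction, scaling, filters, probe choice, variance models, array weights, a replicate block and leaving out each array; their effects are given in the closing section.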

Additional observations from a re-analysis of the deposited data

Results flagged for a closer look

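In 60 sets of 4 mice (15 probes in 4 groups), 6 single mice stood apart from the other 3 of their group by Dixon's test at the 95% level, which chance alone gives in about 1 set of 20. In Gclc, wild-type irradiated replicate 2 read 2.27 where the other 3 lay between 2.00 and 2.03. In Nqo1, knockout sham replicate 1 read -4.39 where the others lay between -3.32 and -3.14, and wild-type irradiated replicate 3 read -2.51 where the others lay between -2.92 and -2.87. On the Prdx1 probe A_66_P113839, knockout sham replicate 1 read 1.40 beside 1.01 to 1.06. On the Slc7a11 probe A_51_P129502, wild-type sham replicate 3 read -2.47 beside -1.58 to -1.47, and on A_52_P368057 knockout sham replicate 1 read -2.74 beside -2.22 to -2.15. Knockout sham replicate 1 accounts for 3 of the 6.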

How the results depend on the processing

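Over 30 alternative settings, the 10 members gave 0 calls in the irradiation comparisons and the interaction under every setting that could be fitted, leaving out single arrays included. Knockout minus wild type in sham gave 1 call, Txnip, with array weights (adjusted p = 0.034). After irradiation Txnip was called, giving 1 in place of 0, with normexp on the median signals (the files used here hold no mean signals), without the filter on dim probes, with array weights and with each probe as a row; without single arrays the count was 0 to 1, the 1 being without wild-type irradiated replicate 1. Over its alternatives the Txnip value ran from -0.60 (array median as the scale) to 0.052 (mean of probes), with adjusted p from 0.013 to 0.85. Counted over the 15 probes, this comparison gave 3 calls with normexp (both Txnip probes and Prdx1 A_51_P353183), 0 with quantile normalization, the array median, the deposited scores, only the compared groups, the brightness covariate or without the 2 dimmest arrays, and 0 to 1 without single arrays. The pathway lists, with 2 calls, gave 7 with normexp, 6 without the filter, 4 with array weights, 1 with the mean of probes, 0 under the same 6 settings that left no probe, and 0 to 3 without single arrays. The calls over all genes rose too in this comparison, to 3382 of 17436 with normexp and 1798 of 22911 without the filter, from 205. The added Txnip, Prdx1 and pathway calls under these 2 settings are therefore not particular to these genes. Ephx1 and Osgin1, averaged over genotypes, were called under all 29 settings that could be fitted. The array median moved the median of all genes by 0.10 (irradiation in wild type), -0.20 (knockout minus wild type after irradiation) and -0.17 (interaction). In the same genotype comparison the share of calls that were higher was 41.6% of 89 with quantile normalization and 35.3% of 17 with the array median, against 143 of 205.

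With the replicate number (also the slide column) as a block, Txnip was called after irradiation (1 call in place of 0, adjusted p = 0.049). Of 24 same-number pairs 11 had deviations correlated above 0.1, and 7 of 16 arrays correlated best with their own number. Between sham and irradiated mice of one number, r was 0.52, 0.053, 0.27 and 0.37 in knockouts. In wild type it was 0.20, -0.60, -0.096 and 0.058. Whether the number stands for a shared factor was not tested. Slide and slide row coincide with genotype and treatment, so no further block could be fitted. The brightness covariate and the fit without the 2 dimmest arrays were chosen after seeing the data. In knockout minus wild type after irradiation the covariate gave -0.51 for Prdx1 and -0.56 for Slc7a11, neither called. The main fit gave -0.11 and 0.040.

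Of 1780 member values under the alternatives, 144 had the other sign, and Txnip's 0.40 was the largest change that turned. With 4 mice a group, 95% half-widths, not adjusted over genes, were 0.19 to 0.58 in the direct comparisons and up to 0.82 in the interaction. Members whose interval left out 0 still missed the adjusted threshold, so changes larger than these widths may also have been missed.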
